A study of Mus musculus with 6 samples.

Results

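The genes described here are 10 genes of the feedback from ERK, the last kinase of the RAS, RAF and MEK cascade. They encode the phosphatases Dusp4, Dusp5 and Dusp6, the Sprouty proteins Spry1, Spry2 and Spry4, the Spred proteins Spred1 and Spred2, and the transcription factors Etv4 and Etv5. The genes were listed by family with earlier results of these arrays known, and some relatives stand in other lists described below. The probe set of each was to be chosen by its mean signal over all 6 arrays. Each gene had 1 probe set named for it alone, so that choice decided nothing, and all 10 of the 30063 genes measured were found. Epidermal sheets of E18.5 mouse embryos, late in gestation, gave 3 RNA samples with a conditional knockout of Rptor (Rptor cKO) and 3 from wild-type littermates. Rptor encodes Raptor, the subunit that presents substrates to the kinase mTORC1. The samples of a group are called biological replicates in the series description, which does not say whether each came from 1 embryo. The epidermis had been lifted off the dermis with ammonium thiocyanate, and neither group received a further treatment that the labels name. The sources used here give neither the Cre line that drives the knockout nor the exons it removes. Phosphorylated ERK was not measured on these arrays, so the name ERK feedback rests on what the genes are known for.

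Growth factor receptors such as those of the FGF and EGF families pass their signal through RAS, RAF and MEK to ERK. Active ERK switches on genes that slow the same pathway. DUSP6 removes the activating phosphates from ERK in the cytoplasm, and DUSP5 and DUSP4 do so in the nucleus. Sprouty and Spred proteins act further up, between the receptor and RAF, with Spred proteins carrying the RAS inhibitor neurofibromin to the membrane. ETV4 and ETV5 are transcription factors of the PEA3 branch of the ETS family, made in response to FGF signals in many developing epithelia. Because these RNAs follow the pathway, they are widely read as a sign of its output.

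The stretch before the start site was searched for motifs, because response elements of the pathway lie there. No comparison of the genes that rose with the others was made. RefSeq start sites on GRCm38.p6 were used for 7 of the genes, with 2 starts for Etv5 and 8 promoters in all. The promoters of Dusp4, Spry4 and Etv4 were not searched, so whether they hold these motifs was not tested. The 250 bases before each start were searched on both strands for the octamer of capicua (TGAATGAA, TGAATGGA, TCAATGAA or TCAATGGA), a repressor that ERK signalling relieves. They were also searched for ETS cores (CGGAAG or AGGAAG), the cyclic AMP response core (TGACGT), the AP-1 element (TGAGTCA or its complement) and the CArG box of serum response factor. Dusp6 and Spry2, which rose, are printed with their capicua octamer in capitals. Dusp5, which did not pass the test, is printed with its CArG boxes in capitals. Matches to the other motifs are left in lower case in these sequences. Spred2 and Etv5, which also rose, held no capicua octamer and are not printed.
Dusp6, chr10:99262981-99263230, plus strand: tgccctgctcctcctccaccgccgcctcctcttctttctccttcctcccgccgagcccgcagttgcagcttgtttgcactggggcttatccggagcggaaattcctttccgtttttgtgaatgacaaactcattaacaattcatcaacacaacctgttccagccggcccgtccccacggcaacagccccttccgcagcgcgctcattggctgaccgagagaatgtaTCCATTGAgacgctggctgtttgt
Spry2, chr14:105896820-105897069, minus strand: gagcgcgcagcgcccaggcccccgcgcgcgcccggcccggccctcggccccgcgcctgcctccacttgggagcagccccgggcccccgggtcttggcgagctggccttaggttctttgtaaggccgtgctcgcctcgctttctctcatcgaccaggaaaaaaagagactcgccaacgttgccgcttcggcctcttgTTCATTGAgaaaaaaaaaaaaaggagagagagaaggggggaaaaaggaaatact
Dusp5, chr19:53528895-53529144, plus strand: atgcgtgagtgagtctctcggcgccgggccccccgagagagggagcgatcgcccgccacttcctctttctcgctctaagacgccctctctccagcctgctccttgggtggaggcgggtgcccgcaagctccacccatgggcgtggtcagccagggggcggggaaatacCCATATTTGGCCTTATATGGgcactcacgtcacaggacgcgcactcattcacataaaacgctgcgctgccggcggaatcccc

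The octamer of capicua lay 24 to 17 bases before the start of Dusp6 and 54 to 47 bases before that of Spry2, both on the opposite strand. It was in 2 of the 8 promoters, and 3.19% of all 32851 RefSeq promoter windows of the same length held it. Dusp5 held 2 CArG boxes side by side, at 82 to 73 and 72 to 63 bases before its start, and no other of the 8 promoters held one (1.47% of all windows). ETS cores were in 4 of the 8 promoters, those of Dusp6, Dusp5, Spred1 and Spred2, against 39.2% of all windows. The cyclic AMP core was in the promoters of Dusp5 and Spred2 (6.47% of all windows), and the AP-1 element in none of the 8 (4.46%). No match overlapped a match to another motif in these promoters. Spry1 and both starts of Etv5 held none of these motifs in the window. These are matches of letters, and binding was not measured.

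In Rptor cKO epidermis 6 of the 10 genes were higher and none was lower, with 4 that did not pass the test. Those that rose were Dusp6, Etv4, Etv5, Spry2, Spry4 and Spred2, by 5.40-fold for Dusp6 down to 1.51-fold for Spred2. Among all 30063 genes 3.64% were called higher and 5.96% lower, by limma with Benjamini-Hochberg adjustment over all genes and a threshold of 0.05. The list was drawn up with earlier results of these arrays known, so its counts and its median are a description. All 3 Rptor cKO arrays lay above all 3 wild-type arrays for 7 of the 10 genes, and 16.5% of all genes showed that order. At an unadjusted p under 0.05 in limma none of the 10 was lower either, and the 6 called genes and Spred1 were higher. The share of all genes at that threshold was not counted, so these counts and the list counts at it below have no background share. Taken as the log2 level in Rptor cKO less that in wild type, the median difference of the 10 genes was 0.77, against 0.05 over all genes. On every array all 10 genes read above that array's median over the negative control probe sets. In sheets of mixed cells, more cells of one type and more RNA per cell cannot be told apart.

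**Figure D1:**
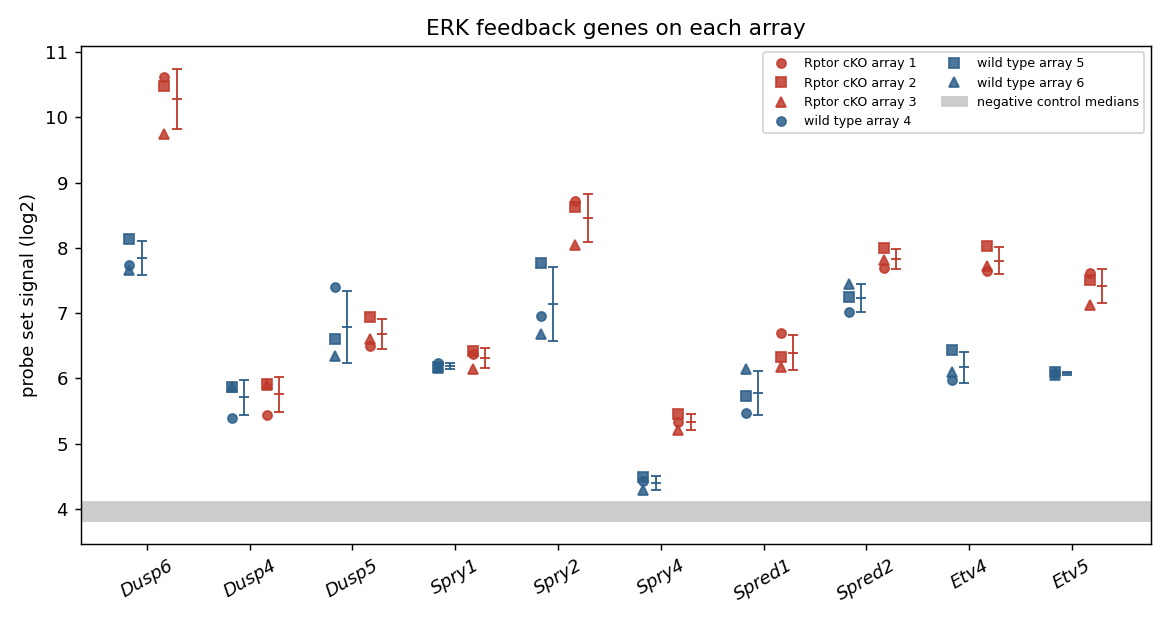
Log2 signal of the probe set of each ERK feedback gene (vertical axis) on each of the 6 arrays, with Rptor cKO in red and wild type in blue. Bars beside the points are the mean and SD of 3 arrays, the grey band spans the 6 arrays' negative control medians, and heights of different genes are not comparable. For Dusp6 the red points run from 9.75 to 10.62 and the blue points from 7.66 to 8.14, while for Dusp4, Dusp5 and Spry1 the colours overlap.

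The phosphatase genes went separate ways. Dusp6 (chromosome 10, 99263231 to 99267489, GRCm38), the cytoplasmic phosphatase of ERK, read 10.62, 10.48 and 9.75 on Rptor cKO arrays 1 to 3 and 7.74, 8.14 and 7.66 on wild-type arrays 4 to 6. The groups stood apart by 1.61, the distance from the lowest Rptor cKO array to the highest wild-type array. The means were 10.28 ± 0.47 and 7.85 ± 0.25 (SD, n = 3), a 5.40-fold rise with a 95% interval of 3.77 to 7.75 (limma adjusted p = 0.00138). Ranked by size, this was the sixth largest rise of all genes measured (rank 6).

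Dusp4 (chromosome 8, 34807610 to 34819894), a nuclear phosphatase that acts on several MAP kinases, read 5.45, 5.92 and 5.90 in Rptor cKO against 5.40, 5.86 and 5.87 in wild type. One array of each group was low, and the groups overlapped throughout. The difference was 0.04 on the log2 scale with a 95% interval of -0.35 to 0.44 (limma adjusted p = 0.912). Dusp5 (chromosome 19, 53529145 to 53541809), the nuclear phosphatase of ERK, read 6.50, 6.94 and 6.61 in Rptor cKO against 7.41, 6.60 and 6.35 in wild type. Wild-type array 4 was the highest of the 6 arrays and wild-type array 6 the lowest, so the Rptor cKO arrays lay within the wild-type range. The difference of -0.10 had an interval of -0.68 to 0.48 (limma adjusted p = 0.853), so that a fall to 0.62-fold or a rise to 1.39-fold lies within it. The intervals of Dusp4 and Dusp5 lie below that of Dusp6, whose lower bound was 1.91. The difference between the genes was not tested.

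Of the Sprouty genes, whose products hold back signalling from receptors to RAF, 2 rose. Spry2 (chromosome 14, 105891947 to 105896819) read 8.72, 8.62 and 8.04 in Rptor cKO against 6.96, 7.77 and 6.68 in wild type. Its wild-type arrays were spread widely, with array 5 only 0.27 below the lowest Rptor cKO array. Spry2 rose by 1.32 (SE 0.28), 2.51-fold with an interval of 1.60 to 3.92 (limma adjusted p = 0.0236). This call was lost without Rptor cKO array 1 (adjusted p = 0.0682) or 2 (0.104), and without wild-type array 4 (0.0542) or 6 (0.0755), where the difference ran from 1.10 to 1.25.

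Spry4 (chromosome 18, 38586247 to 38601347) read 5.34, 5.45 and 5.21 in Rptor cKO against 4.42, 4.49 and 4.29 in wild type. Its lowest array was 0.44 above that array's negative control median, the nearest to it of the 10 genes, and its groups were tight and 0.72 apart. Spry4 rose by 0.93 (SE 0.10), 1.91-fold with an interval of 1.62 to 2.25 (limma adjusted p = 0.00235). Spry1 (chromosome 3, 37639947 to 37644599) read 6.38, 6.42 and 6.14 in Rptor cKO against 6.24, 6.17 and 6.15 in wild type. Rptor cKO array 3 was the lowest of all 6 arrays, so the groups overlapped. The difference of Spry1 was 0.13 with an interval of -0.11 to 0.36 (limma adjusted p = 0.524).

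Both Spred genes read higher in every Rptor cKO array than in any wild-type array, and 1 passed the test. Spred2 (chromosome 11, 19924442 to 20024026) read 7.69, 7.99 and 7.81 in Rptor cKO against 7.01, 7.25 and 7.44 in wild type, and rose by 0.60 (SE 0.13, limma adjusted p = 0.0282). That is 1.51-fold, with an interval of 1.22 to 1.87. The call of Spred2 was lost without Rptor cKO array 2 (adjusted p = 0.120) or 3 (0.0633), and without wild-type array 4 (0.0623) or 5 (0.0647). Spred1 (chromosome 2, 117121071 to 117182279) read 6.69, 6.32 and 6.18 in Rptor cKO against 5.47, 5.73 and 6.14 in wild type. Its groups stood only 0.04 apart, since wild-type array 6 came close to Rptor cKO array 3. The difference of 0.61 (SE 0.19), close to that of Spred2, missed the threshold (limma adjusted p = 0.0856) and had an interval of 0.18 to 1.05. Without wild-type array 6 it was 0.79 and passed (adjusted p = 0.0450).

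The PEA3 factors both rose. Etv4 (chromosome 11, 101769747 to 101785310) read 7.65, 8.04 and 7.72 in Rptor cKO against 5.97, 6.43 and 6.11 in wild type. The groups were 1.22 apart, more than the spread within either, and Etv4 rose 3.10-fold with an interval of 2.45 to 3.93 (log2 difference 1.63, SE 0.15, limma adjusted p = 0.00133). Etv5 (chromosome 16, 22381313 to 22439570) read 7.61, 7.51 and 7.13 in Rptor cKO against 6.08, 6.10 and 6.06 in wild type. Its wild-type arrays differed by less than 0.05 from each other, and Rptor cKO array 3 stood below the other two. Etv5 rose 2.52-fold with an interval of 2.05 to 3.10 (log2 difference 1.34, SE 0.13, limma adjusted p = 0.00156). In order of size among the rises of all genes measured, Etv4 had rank 30, Etv5 rank 44 and Spry2 rank 48, followed by Spry4 at 179 and Spred2 at 699.

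**Figure D2:**
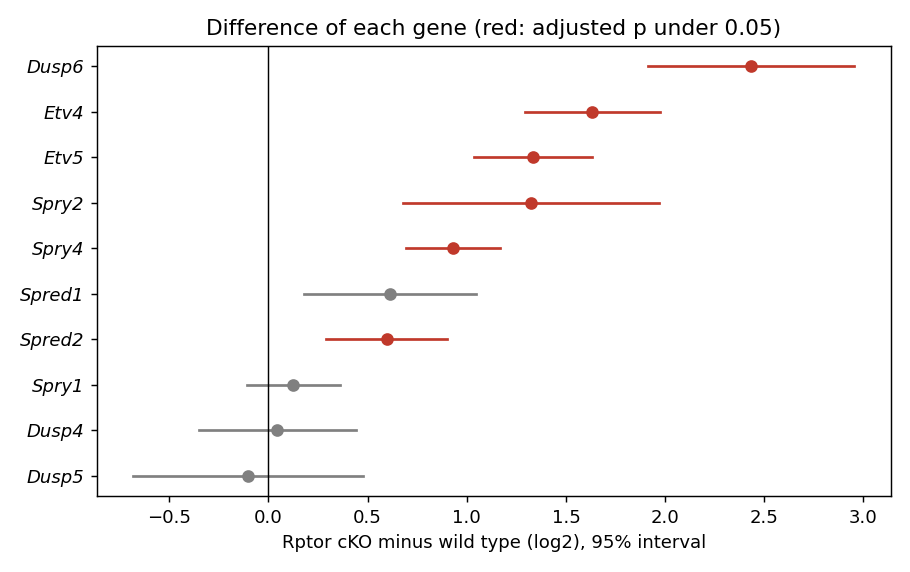
Difference between Rptor cKO and wild type in log2 units (horizontal axis) for each ERK feedback gene, with its 95% interval from the limma fit, red where the adjusted p was under 0.05. Dusp6 lies farthest to the right at 2.43, and the intervals of Spry1, Dusp4 and Dusp5 cross 0.

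The order of the arrays within a group differed between the genes that rose. Rptor cKO array 1 was the highest of its group for 3 of the 6 (Dusp6, Spry2 and Etv5) and array 2 for the other 3. Rptor cKO array 3 was the lowest of its group for 4 of the 6 (Dusp6, Spry2, Spry4 and Etv5), array 1 for the other 2, and array 2 for none. Wild-type array 5 was the highest of its group for 5 of the 6, with Spred2 the exception, where array 6 was highest. The lowest wild-type array was array 6 for 4 of the 6 and array 4 for 2. By Xist and Y-linked genes Rptor cKO arrays 1 and 3 read as female, and Rptor cKO array 2 and all wild-type arrays as male. In the male arrays alone, which set Rptor cKO array 2 against the wild type, Dusp6 was higher by 2.63, Etv4 by 1.87, Etv5 by 1.43 and Spry4 by 1.05, and these 4 were called. Spry2 at 1.48 (limma adjusted p = 0.106) and Spred2 at 0.76 (adjusted p = 0.111) were not called there. With any 1 array left out, 4 to 6 of the 10 genes were called higher, and Dusp6, Etv4, Etv5 and Spry4 were among them each time. An exact permutation test of 1 gene cannot go below p = 0.1 with 3 against 3 arrays. Rptor itself averaged 6.69 ± 0.14 (SD, n = 3) where it was targeted and 7.15 ± 0.27 in the controls. Its difference of -0.46 missed the threshold (limma adjusted p = 0.0988).

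**Figure D3:**
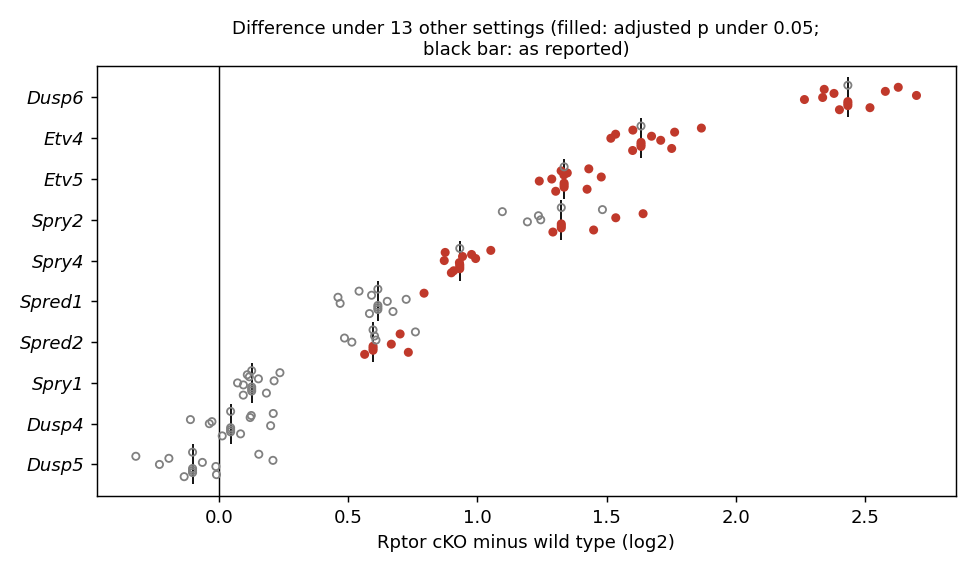
Log2 difference between Rptor cKO and wild type (horizontal axis) of each ERK feedback gene under 13 other settings, filled red where the adjusted p was under 0.05, with the value as reported as a black bar. The points of Dusp6, Etv4, Etv5 and Spry4 stay well right of 0, with 1 open point each from the fit without variance moderation, and those of Dusp4 and Dusp5 lie on both sides of 0.

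The genes whose 6 values, each taken from the gene's own mean, lay nearest to those of Dusp6 were Nrg1, Ccn1, Lgals1, Plet1 and Ccl20. Their root mean square difference from Dusp6 was 0.23, 0.31, 0.31, 0.37 and 0.38 on the log2 scale over 6 arrays, which share the 2 groups that set most of this likeness. Nrg1 has 2 probe sets and differed by 2.49 with the brighter one and by 1.44 with their mean. Its brighter probe set read below the negative controls' median on all 3 wild-type arrays, so the wild-type level is not above background and neither the size of the difference nor the place beside Dusp6 is exact. Nrg1 encodes the ligand neuregulin, Ccn1 a matrix protein, Lgals1 a galectin, Plet1 a surface protein of epithelial progenitors and Ccl20 a chemokine. Of the other ERK feedback genes Etv4 came next in that order, at place 13 with 0.49, then Etv5 at 28 and Spry2 at 29. Dusp5 lay farthest, at 1.35.

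Relatives of these genes were divided. Of 7 other MAP kinase phosphatases 1 rose and 1 fell, with a median difference of 0.05 (2 higher and 2 lower at an unadjusted p under 0.05). Dusp9, a cytoplasmic phosphatase of ERK, averaged 7.13 ± 0.08 (SD, n = 3) in Rptor cKO against 6.13 ± 0.07 in wild type, a rise of 0.99 (SE 0.09, limma adjusted p = 0.00133). Dusp1, the broad nuclear phosphatase of stress and growth signals, read 6.80 ± 0.64 and 8.47 ± 0.68 and fell by 1.68 (SE 0.38, limma adjusted p = 0.0307). The call of Dusp1 was lost without Rptor cKO array 1 or 2 or wild-type array 6, with adjusted p up to 0.230 over all settings. Dusp7, the third cytoplasmic phosphatase of ERK and chosen after its value was seen, differed by 0.67 (limma adjusted p = 0.0523). Neither Spry3, which stayed below the negative controls' median on each of the 6 arrays and differed by -0.04 (limma adjusted p = 0.827), nor Spred3 was called, and at an unadjusted p under 0.05 the count of these was 0 as well. Etv1 was not analysed here.

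Among 15 other negative regulators of RAS and ERK the median was 0.04, and 2 passed as lower and 0 as higher (4 and 1 at an unadjusted p under 0.05). They were the RAS inhibitors Rasal2, down by 0.75 (SE 0.09, limma adjusted p = 0.00363), and Rasal1, down by 0.53 (SE 0.12, limma adjusted p = 0.0302). The call of Rasal1 was lost without any one of Rptor cKO arrays 1, 2 and 3 or wild-type arrays 4 and 5. Of the 17 genes of the RAS to ERK cascade that were analysed, 1 rose and 2 fell, with a median of -0.12. At an unadjusted p under 0.05 in limma, 2 of the 17 were higher and 4 lower. Rras, a relative of RAS, rose by 0.68 (SE 0.13). Shoc2, a scaffold that helps RAF activation, fell by 0.58 (SE 0.13) and the docking protein Gab1 by 0.48 (SE 0.12), with limma adjusted p of 0.0169, 0.0278 and 0.0463. None of the 3 passed without Rptor cKO array 2 or without wild-type array 6. Shoc2 was also lost without Rptor cKO array 1 and with quantile normalization (limma adjusted p = 0.0681). Gab1 was lost with any 1 array left out, with quantile normalization (0.0941) and with a variance trend (0.0812). Map2k1 and Map2k2, which encode the MEK kinases and were chosen after their values were seen, differed by -0.13 and -0.25 and did not pass.

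Of 23 other genes that ERK signalling is known to induce, the median was 0.18, and 4 passed as higher and 0 as lower (8 and 3 at an unadjusted p under 0.05). Hbegf, a ligand of EGFR, rose by 1.18 (SE 0.22, limma adjusted p = 0.0148), and Egr1, an immediate early factor, by 1.04 (SE 0.19, limma adjusted p = 0.0136). Myc rose by 0.76 (SE 0.16, limma adjusted p = 0.0246), and the remaining rise, named after its value was seen, was Plaur, the urokinase receptor. None of the 4 passed without Rptor cKO array 2, and only Egr1 did without wild-type array 6. Myc and Plaur were also lost without Rptor cKO array 1 or wild-type array 4. Other immediate early genes, chosen after their values were seen, did not pass: Fos differed by -0.41 and Egr3 by -0.57 (limma adjusted p = 0.0883 and 0.0914). Junb, Ccnd1 and Areg of this list were not analysed here.

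Upstream, 16 FGF receptors, ligands and cofactors had a median of 0.13, and 2 passed as higher and 0 as lower (5 and 1 at an unadjusted p under 0.05). Flrt2, a membrane protein of a family that binds FGF receptors, averaged 7.47 ± 0.21 (SD, n = 3) in Rptor cKO against 5.87 ± 0.22 in wild type, a rise of 1.60 (SE 0.15, limma adjusted p = 0.00133). Fgfr1 rose by 0.74 (SE 0.16, limma adjusted p = 0.0246), a call lost without Rptor cKO array 2 or wild-type array 6. The dermal ligands Fgf7 and Fgf10, chosen after their values were seen, were not above the negative controls' median on any of the 6 arrays. Of 13 ERBB receptors and ligands, 3 rose and 3 fell, with a median of 0.11 (3 and 3 at an unadjusted p under 0.05). The rises were the ligands Nrg1, Hbegf and Epgn, the last by 1.64 (SE 0.18, limma adjusted p = 0.00235). Wild-type Nrg1 was below the negative controls' median on 3 of 3 arrays and wild-type Epgn on 2 of 3, so the sizes of these rises are not exact. Btc, a ligand, fell by 2.91 (SE 0.47, limma adjusted p = 0.00908), and the receptor Erbb3 by 0.94 (SE 0.17, limma adjusted p = 0.0121), a call lost without Rptor cKO array 2. Nrg4, at 3.95 ± 0.03 against 4.57 ± 0.04 (SD, n = 3), fell by 0.62 (SE 0.08, limma adjusted p = 0.00483). On 1 of its 3 Rptor cKO arrays it read below the negative controls' median. Hbegf stands in both this list and that of ERK target genes.

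Of 18 other ETS factors and genes of the capicua complex, 3 rose and 1 fell, with a median of 0.05. The counts were 4 higher and 2 lower at an unadjusted p under 0.05. Atxn1, a partner of capicua, rose by 0.70 (SE 0.11, limma adjusted p = 0.00709), Elk3 by 0.42 (SE 0.08) and Ets1 by 0.47 (SE 0.11), while Etv6, an ETS repressor, fell by 0.70 (SE 0.10, limma adjusted p = 0.00631). Without Rptor cKO array 2, 1 rise and 1 fall were left. Elk3 also lost its call without Rptor cKO array 3, and Ets1 lost it without any one array other than Rptor cKO array 1. Cic, which encodes capicua and was chosen after its value was seen, differed by 0.37 (limma adjusted p = 0.0815). The parallel JNK and p38 kinases and their activators, 10 genes, had a median of -0.51, with 1 rise and 2 falls. At an unadjusted p under 0.05 in limma, 1 of them was higher and 6 were lower. Mapk11 rose by 0.78 (SE 0.09), and the kinases Map2k4 and Map2k6 fell by 1.14 (SE 0.19) and 0.67 (SE 0.16). Both falls were lost without Rptor cKO array 2 (limma adjusted p = 0.0503 and 0.130). Map2k4 kept its call with each other array left out. Map2k6 also lost it without Rptor cKO array 3 (0.0705) or wild-type array 4 (0.0936) or 6 (0.119), with array medians subtracted (0.0553) and with quantile normalization (0.0568).

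**Figure D4:**
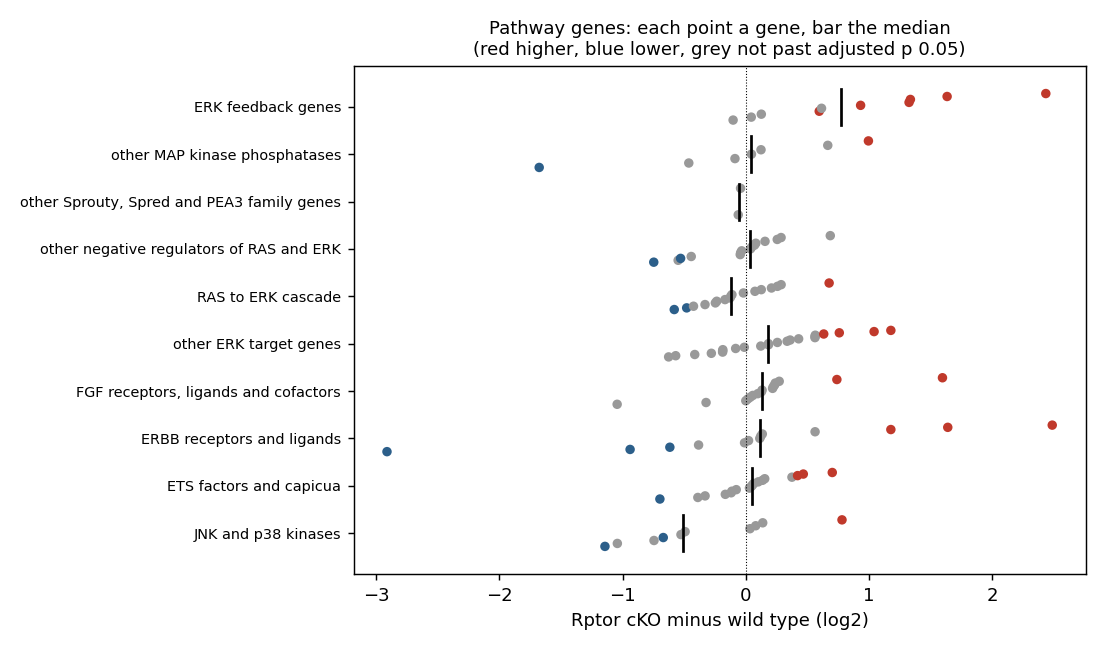
Log2 difference between Rptor cKO and wild type (horizontal axis) for every measured gene of the ERK feedback genes and 9 pathway lists, with a bar at each median, red for genes called higher and blue for genes called lower. The ERK feedback genes have their median at 0.77 and no blue point, and the other medians lie between -0.51 and 0.18. All these lists were chosen with earlier results of these arrays known, so the contrast between them is a description.

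Markers of the cells that a sheet can hold moved with the genotype as well. All 6 spinous and all 6 granular keratinocyte markers fell. Of these, 3 and 2 passed without Rptor cKO array 2, and 3 and 3 without wild-type array 6. Of 7 basal markers 1 rose, Itgb4 by 0.98 (limma adjusted p = 0.00291), and 1 fell, Krt15 by 2.31 (limma adjusted p = 0.00687). The others, Krt5 and Krt14 among them, did not pass. The summed linear signal of the spinous markers was 3672 to 10432 in Rptor cKO and 18031 to 21942 in wild type. The granular markers summed to 1960 to 5306 against 10982 to 21238, and the basal markers to 6989 to 9385 against 8771 to 10596. Of 6 fibroblast markers 4 rose (Dcn, Lum, Col3a1 and Col1a1), with sums of 702 to 919 against 422 to 461. Lum read below the negative controls' median on 2 of 3 wild-type arrays. With 1 array left out, 1 to 6 of the 6 passed, the fewest without Rptor cKO array 2 or wild-type array 6. Of 7 hair placode markers 3 rose (Edar, Dkk4 and Krt17), with sums of 3667 to 4902 against 2495 to 3078. None of 5 melanocyte, 4 muscle or 3 Schwann cell markers passed in limma (2, 2 and 0 higher at an unadjusted p under 0.05). Their sums overlapped, at 1191 to 1883 against 802 to 1355, 224 to 316 against 156 to 233, and 154 to 178 against 148 to 166. Of 6 endothelial markers 1 rose, Pecam1, while Kdr, Tek and Emcn read below the negative controls' median everywhere. Their sums were 88.6 to 100.4 against 76.4 to 91.4. Of 5 immune markers Ptprc and Csf1r fell, with sums of 111 to 127 against 138 to 155. Ptprc read below the negative controls' median on all 3 Rptor cKO arrays and on 1 wild-type array, so the size of its fall is not exact. Of 6 Merkel cell markers 1 rose and 1 fell, with sums of 187 to 229 against 201 to 220. The part of these shifts in the rise of the ERK feedback genes was not tested.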

How the data were processed

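RNA of epidermal sheets was measured on 6 arrays, 3 Rptor cKO and 3 wild type. The deposited table gives the authors' values on a log2 scale. The processing notes of the submitters list Partek, RMA and mm10 (GRCm38). RMA makes the arrays' distributions alike, so it hides a general shift of RNA per cell, and it compresses changes of dim probe sets. No slide or scan date is given in these sources, so batches could not be tested, and the number of arrays limits the precision.

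Probe sets were named by the platform annotation, with symbols updated by Entrez ID or a unique RefSeq synonym. Of 72688 probe sets 30604 named a single gene, giving 30063 genes, each with its brightest probe set. Differences came from limma 3.58.1 (lmFit, then eBayes) under R 4.3.3, with genotype as the sole term, two-sided, and adjusted by Benjamini-Hochberg over all genes. Intervals are 95% and SE is the moderated standard error. The fit was tested on simulated data. Lists were described by counts and medians alone, and named list genes are those that passed with the smallest p (at most 3 per direction), or else the 1 of smallest p. Promoters came from RefSeq. The members and lists were chosen with earlier results of these data known. Alternatives were other scalings, no moderation, a variance trend, a filter on dim genes, the mean of probe sets, male arrays alone and each array left out.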

Additional observations from a re-analysis of the deposited data

How the results depend on the processing

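Dusp6, Etv4, Etv5 and Spry4 kept their direction and their call in 12 of 13 other settings, and Spry2 and Spred2 kept their direction in all 13 and lost the call in 6 each. Of the 10 genes, 6 were called higher with array medians subtracted, with quantile normalization, with a variance trend, with dim genes left out and with the mean of probe sets. Each of the 10 has 1 probe set and none was dim, so the dim filter and the mean of probe sets left their values as they were. In those settings, with a variance trend and without moderation the differences could not change, so the direction was not tested there. In the male arrays alone 4 of the 10 were called higher, and with 1 array left out 4 to 6, where the 6 without wild-type array 6 include Spred1 and not Spry2. In the ordinary linear model without variance moderation, which has 4 residual degrees of freedom, 0 of the 10 were called, and 8 genes of all were. The adjusted p of the 6 genes called as reported ran there from 0.0847 for Spry4 to 0.206 for Spry2. For the others it ran from 0.292 for Spred1 to 0.931 for Dusp4. No gene of the 10 was called lower in any setting. The count over all genes, 2886 as reported, was 867 in the male arrays alone, a comparison of 1 array with 3 in which the lone array is assumed to vary like the others. It ran from 900 without Rptor cKO array 2 to 2444 without Rptor cKO array 3, and was 1854 without Rptor cKO array 1. Dusp4 changed sign in 3 settings and Dusp5 in 2, never past the threshold. No paired analysis was possible because the arrays of the groups share no replicate numbers. Dim signal limits Spry4 most, whose fold may be understated.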
